A study of Mus musculus with 6 samples.

Results

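Retinoic acid is made from vitamin A inside cells and acts through nuclear receptors that bind DNA. Retinol carried in blood enters cells through STRA6, is oxidised to retinaldehyde and then, by the ALDH1A enzymes, to retinoic acid. CRABP proteins hold retinoic acid in the cytosol, CYP26 enzymes degrade it, and the receptors RARA, RARB and RARG pair with RXR proteins on DNA. In the limb bud this pathway is known for its part in patterning along the proximal to distal axis, and limb mesenchyme is known to lower RAR signalling before it forms cartilage.

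The expression of 9 mouse genes of this pathway was followed as hind limb mesenchyme condensed and became cartilage: Stra6, Aldh1a2, Aldh1a3, Cyp26b1, Crabp1, Crabp2, Rara, Rarb and Rarg. They were chosen by name, and every spot whose only gene symbol was one of these names was read, which gave 23 of 45220 spots and 9 of 19077 genes with a value. All 23 spots had a value on all 6 arrays. Stra6, Aldh1a2, Cyp26b1, Crabp1, Crabp2 and Rara had 1 spot each, Aldh1a3 had 2, Rarg had 4 and Rarb had 11.

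The RNA came from tibial and fibular tissue dissected by hand from frozen hind limb sections of Swiss white mouse embryos, with no mutation or treatment in any group. There were 3 pools: 4 hind limbs gave the pre-condensed mesenchyme of 11.5 days post coitum (dpc), 3 gave the mesenchymal condensation of 12.5 dpc, and 4 gave the cartilage anlagen of 13.5 dpc. Each pool was amplified over 2 rounds. The pools were compared pairwise on 6 2-colour arrays, 2 arrays for each pair of pools with the dyes exchanged, so that both members of a pair hold the same RNA. With 1 pool for each age no difference has a replicate check, no test between ages was possible, and the 3 comparisons share their pools.

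A value below is a log2 ratio of a later over an earlier pool, after each array was centred on its median. On dye combination 1 the later pool carried Cy5, and on dye combination 2 it carried Cy3. The fitted ratio draws on all 6 arrays by least squares, and the technical error is taken as 0.5 times the gap between the direct arrays of a comparison. A level is a fold over the pool in which that gene was lowest, and a gene is called higher or lower here when its fitted ratio is at least 3-fold. The study used this fold for 13.5 over 11.5 dpc together with a filter on intensity, which was not applied here, and the single steps are read with the same fold. The technical error has a median over spots of 0.213 for 13.5 over 11.5 dpc, 0.217 for 12.5 over 11.5 dpc and 0.236 for 13.5 over 12.5 dpc. It leaves out differences between animals, the choice of centre, and any gap between the direct arrays and the path through the remaining pool.

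Of the 9 genes, 2 were higher at 13.5 than at 11.5 dpc, Aldh1a3 and Stra6, and 2 were lower, Crabp2 and Aldh1a2. Over all 19077 genes, 2.93% were called higher and 2.57% lower in that comparison, and without centring of the arrays 3.71% and 1.79%. None of the 9 passed 3-fold in either single step, for which the shares over all genes were 1.24% higher and 0.299% lower for 12.5 over 11.5 dpc, and 1.35% higher and 0.776% lower for 13.5 over 12.5 dpc. The median fitted ratio of the 9 genes was 0.13 for 13.5 over 11.5 dpc, against 0.07 for all genes. The 9 genes thus lay on both sides of 0 around a median near that of the arrays. Without centring, the median of all genes was 0.24 for 13.5 over 11.5 dpc, 0.44 for 12.5 over 11.5 dpc and -0.32 for 13.5 over 12.5 dpc. Every ratio below moves with the choice of centre.

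After centring, 5 of the 9 genes had the same sign on every array, and without centring 4 did, with Aldh1a2 the exception. Shares of all genes are given here for centred arrays only, so the count without centring has none beside it. Aldh1a3, as the mean of its 2 spots, and Stra6 were above 0 on all 6 arrays, as were 6.82% of the 18425 genes measured on all of them. A single spot of Aldh1a3 read -0.17 on dye combination 2 of 13.5 over 12.5 dpc, and -0.75 there without centring. Aldh1a2, Crabp2 and Rarb were below 0 on all 6 arrays, as were 11.5% of genes. Cyp26b1 was below 0 on both arrays of the earlier step and above 0 on both arrays of the later step, a pattern of 16.0% of genes. Crabp1, Rara and Rarg had arrays of opposite sign for 13.5 over 12.5 dpc, as did 37.0% of genes.

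**Figure D1:**
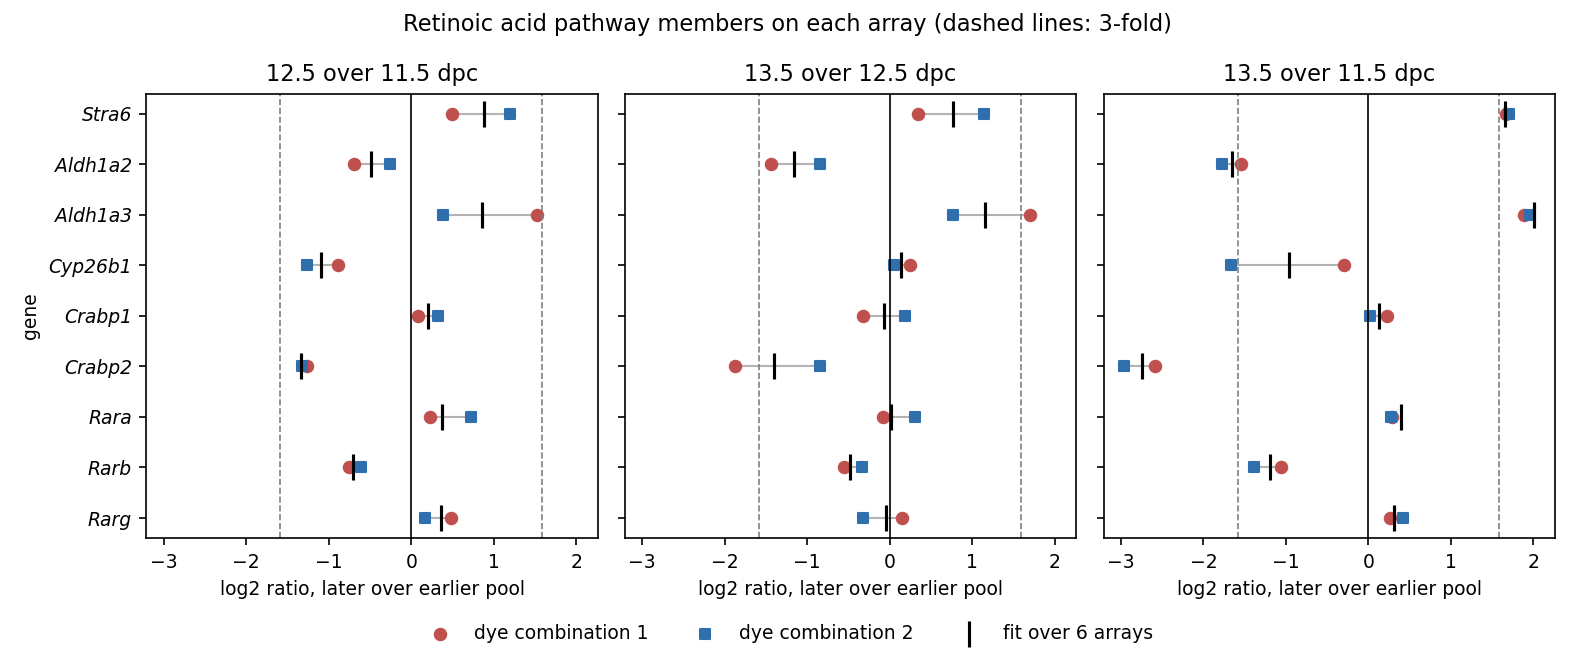
Log2 ratio of the later over the earlier pool (horizontal axis) of each of the 9 genes (vertical axis) on the 2 direct arrays of each comparison, with circles for dye combination 1, squares for dye combination 2 and a bar for the fit over 6 arrays. Dashed lines mark 3-fold; in the right panel Aldh1a3 (2.01) and Stra6 (1.65) lie above the upper line, and Aldh1a2 (-1.65) and Crabp2 (-2.74) below the lower one.

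RAR and RXR pairs bind direct repeats of a 6-base core, and Rarb and Cyp26a1, a further retinoic acid degrading enzyme, are known in mouse to be induced by retinoic acid. The core AGGTCA and the variant forms AGTTCA with T inside, GGGTCA with G in front and GGTTCA with both were searched on both strands, as a pair spaced by 1, 2 or 5 bases, in RefSeq promoter windows of build GRCm38.p6 that run from 250 bases before to 50 after a transcription start. Windows were at hand for 7 of the 9 genes, and for 47 of the other pathway genes described below. Of the 7, only Rarb held such a pair, and of the 47, Cyp26a1 and Bco1 did. The stretches of 100 bases just before the start are shown for Rarb (chr14:16575477-16575576, minus strand) and Cyp26a1 (chr19:37697708-37697807, plus strand), because these genes share the 5-base spacing and moved in opposite directions on the arrays. Capitals mark the cores of the spaced pair only, which on the printed strand of Cyp26a1 read as their reverse complement.
Rarb: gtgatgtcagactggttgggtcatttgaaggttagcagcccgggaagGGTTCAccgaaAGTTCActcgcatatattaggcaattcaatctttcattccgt
Cyp26a1: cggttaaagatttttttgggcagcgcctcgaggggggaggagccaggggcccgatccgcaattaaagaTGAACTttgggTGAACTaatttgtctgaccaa

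The pair of Rarb lay 53 to 37 bases before the start (chr14:16575513-16575529), and that of Cyp26a1 lay 32 to 16 bases before the start (chr19:37697776-37697792). A pair with a 5-base spacer was present in 0.0974% of the 32851 windows, one with a 2-base spacer in 0.268% and one with a 1-base spacer in 0.222%. Bco1, which cleaves beta-carotene to retinaldehyde, held a pair with a 1-base spacer. The single windows of Aldh1a2 (chr9:71215539-71215838), Crabp1 (chr9:54764498-54764797) and Cyp26b1 (chr6:84593761-84594060), and all windows of Rara, Rarg and Stra6, held none of these letters in this arrangement, which says nothing of sequence outside the windows. Of the 9 genes with a 5-base pair that had a value on the arrays, 1 was higher at 13.5 than at 11.5 dpc, Cyp26a1, and 2 were lower, the embryonic globin gene Hbb-y (-3.25) and the platelet chemokine gene Ppbp (-3.38). Their median was 0.03, against 0.07 for all genes. A match of this kind is a description of the letters only.

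Uptake, synthesis and degradation came apart by gene. Stra6, the membrane receptor that takes retinol from its blood carrier, read 1.67 and 1.70 on the 2 arrays of 13.5 over 11.5 dpc, 0.49 and 1.20 on those of 12.5 over 11.5 dpc, and 0.34 and 1.14 on those of 13.5 over 12.5 dpc. The arrays with the later pool in Cy3 read higher in each pair, and by far the closest pair was the one that spans the whole interval. The fitted ratio was 1.65 for 13.5 over 11.5 dpc (technical error 0.02), and the levels were 1, 1.84 and 3.14 in the pools of 11.5, 12.5 and 13.5 dpc. The ratio of each step, 0.88 and then 0.77, exceeded its technical error of 0.36 and 0.40. Stra6 lay just past the threshold: it read 1.57 without the second array of 12.5 over 11.5 dpc, 1.56 without the second array of 13.5 over 12.5 dpc, and 1.38 from dye combination 1 alone, all under the log2 value of 3-fold, 1.585.

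Aldh1a2 encodes the main retinaldehyde dehydrogenase of the early embryo. It read -1.54 and -1.78 for 13.5 over 11.5 dpc, -0.69 and -0.26 for 12.5 over 11.5 dpc, and -1.44 and -0.85 for 13.5 over 12.5 dpc. All centred arrays were below 0, and the later step held the larger part of the difference. The fitted ratios were -1.65 (technical error 0.12) over the whole interval, -0.49 (0.21) for the earlier and -1.16 (0.29) for the later step. The levels were 3.13, 2.23 and 1 at 11.5, 12.5 and 13.5 dpc. Without centring, both direct arrays of the earlier step turned to just above 0 (0.039 and 0.093) with a fitted ratio of -0.04, and the whole interval read -1.48, under 3-fold. The call was also lost without the second array of 13.5 over 11.5 dpc and without the first array of 13.5 over 12.5 dpc, with -1.58 each.

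Aldh1a3, which encodes a second enzyme of the same reaction, went the other way. The mean of its 2 spots was 1.88 and 1.96 for 13.5 over 11.5 dpc, 1.52 and 0.39 for 12.5 over 11.5 dpc, and 1.70 and 0.77 for 13.5 over 12.5 dpc. All were above 0, with wide pairs in both single steps. The fitted ratio over the whole interval was 2.01 (technical error 0.04), and the levels were 1, 1.82 and 4.03. For 13.5 over 11.5 dpc 1 spot read 2.31 and 1.92, and the other read 1.45 and 2.02. Their technical errors were 0.20 and 0.28, and the gaps had opposite signs, which made that of the mean small. The spots came from different transcript records and gave 2.03 and 1.99. On single arrays they parted, and the array of 13.5 over 12.5 dpc with dye combination 2 read -0.17 on one spot and 1.72 on the other. The second of these spots is marked as dim, since its values fall on logarithms of ratios of whole numbers up to 12 on at least 2 arrays, as they did for 33.3% of all spots. Without this dim spot Aldh1a3 was not above 0 on every array. In every alternative tried Aldh1a3 stayed past 3-fold, between 1.70 and 2.32.

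Cyp26b1, the retinoic acid degrading enzyme needed for normal mouse limb patterning, was the only one of the 9 genes whose lowest pool was 12.5 dpc. It read -0.89 and -1.26 for 12.5 over 11.5 dpc, 0.25 and 0.05 for 13.5 over 12.5 dpc, and -0.30 and -1.66 for 13.5 over 11.5 dpc. The earlier step was below 0 on both arrays, the later step was close to 0, and the arrays of the whole interval lay far apart. The fitted ratios were -1.09 (technical error 0.18), 0.13 (0.10) and -0.96 (0.68), with levels of 2.13, 1 and 1.10 at 11.5, 12.5 and 13.5 dpc. Cyp26b1 and Crabp2 were at least 2-fold lower in the earlier step, as were 2.56% of all genes. None of the 9 was at least 2-fold higher, as were 6.23%. This depended on centring: without it Cyp26b1 and Crabp2 read -0.65 and -0.88 in that step, under 2-fold. Aldh1a3 and Stra6 then read 1.31 and 1.33, past 2-fold. For Cyp26b1 the order of the pools of 12.5 and 13.5 dpc did not hold without centring (-0.15), in dye combination 2 alone (-0.10) or without the first array of 13.5 over 11.5 dpc (-0.04).

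**Figure D2:**
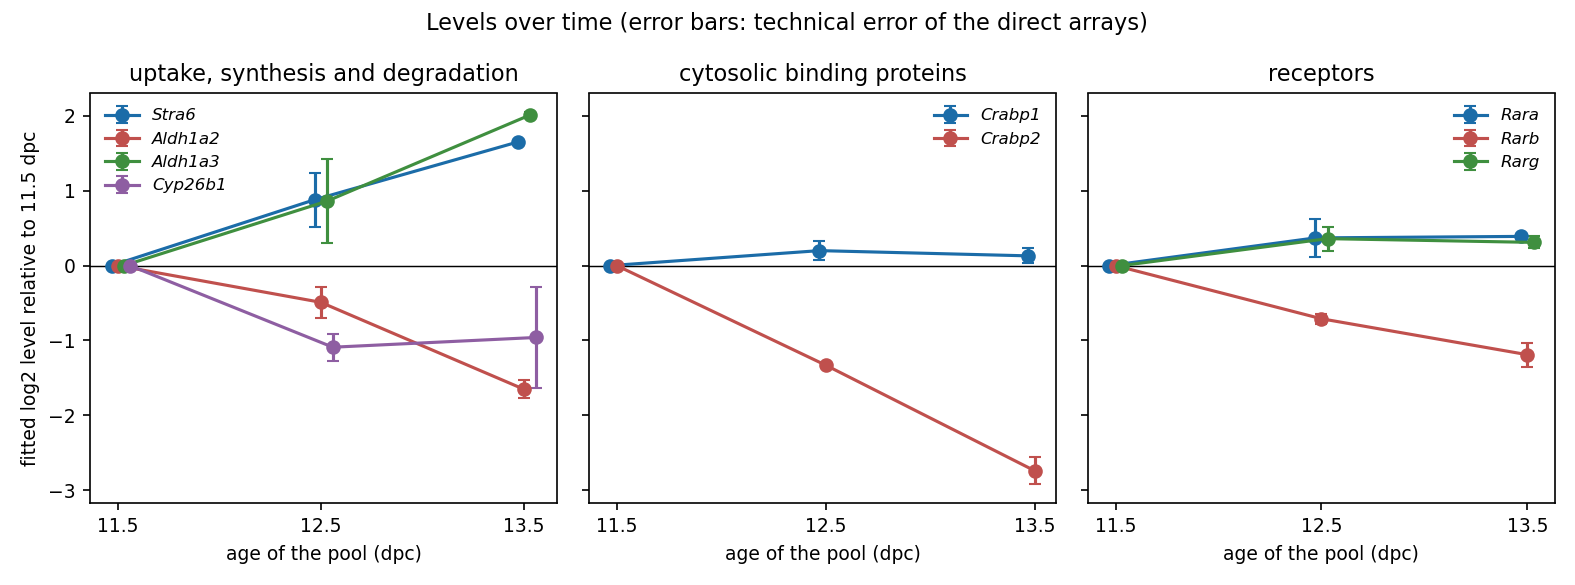
Fitted log2 level relative to the pool of 11.5 dpc (vertical axis) against the age of the pool in dpc (horizontal axis, points set slightly apart), by role. Error bars are the technical error of the direct arrays against 11.5 dpc; at 13.5 dpc Stra6 and Aldh1a3 lie at 1.65 and 2.01, Aldh1a2, Rarb and Crabp2 at -1.65, -1.19 and -2.74, and the bar of Cyp26b1 at 13.5 dpc is the widest at 0.68.

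The cytosolic binding proteins differed from each other. Crabp2, which carries retinoic acid to the receptors in the nucleus, read -2.59 and -2.96 for 13.5 over 11.5 dpc, -1.26 and -1.32 for 12.5 over 11.5 dpc, and -1.88 and -0.85 for 13.5 over 12.5 dpc. It alone of the 9 genes passed 3-fold downward on both direct arrays of 13.5 over 11.5 dpc, as did 1.95% of genes. Upward, Aldh1a3 and Stra6 passed it on both arrays, as did 2.03% of genes. The fitted ratio was -2.74 (technical error 0.18), larger in size than that of 98.8% of genes. The levels were 6.66, 2.65 and 1 at 11.5, 12.5 and 13.5 dpc. The steps of -1.33 and -1.40 differed by less than the technical error of the later one, 0.52. Crabp2, Aldh1a2 and Aldh1a3 had a larger fitted difference in the later than in the earlier step, as did 44.2% of all genes. This order turned for Crabp2 in dye combination 2 alone (-1.11 later, -1.59 earlier) and without the first array of 13.5 over 12.5 dpc (-1.16 and -1.45). For Aldh1a3 it turned without that array (0.87 and 1.00), without the second array of 12.5 over 11.5 dpc (1.03 and 1.10) and without centring (0.87 and 1.31). Over all alternatives Crabp2 stayed between -2.88 and -2.57 for the whole interval.

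Crabp1, the other cytosolic carrier, read 0.22 and 0.02 for 13.5 over 11.5 dpc, 0.08 and 0.33 for 12.5 over 11.5 dpc, and -0.33 and 0.19 for 13.5 over 12.5 dpc. All lay close to 0. The fitted ratios were 0.13 (technical error 0.10), 0.20 (0.13) and -0.07 (0.26), with levels of 1, 1.15 and 1.09, so that the pools of 12.5 and 13.5 dpc could not be put in order. At 2-fold the later step held Aldh1a3 as higher (4.79% of all genes) and Aldh1a2 and Crabp2 as lower (3.7%), and not Crabp1. For 13.5 over 11.5 dpc, 15.4% of genes had a smaller difference than Crabp1.

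Of the receptors, Rarb alone moved by 2-fold. Its promoter window holds the pair of cores shown above, and a link between that pair and the values of Rarb was not tested. The mean of the 11 spots of Rarb was -1.06 and -1.39 for 13.5 over 11.5 dpc, -0.75 and -0.61 for 12.5 over 11.5 dpc, and -0.56 and -0.34 for 13.5 over 12.5 dpc. All arrays were below 0, with close pairs. The fitted ratios were -1.19 (technical error 0.16), -0.71 (0.07) and -0.48 (0.11), and the levels were 2.28, 1.39 and 1 at 11.5, 12.5 and 13.5 dpc. With a threshold of 2-fold the whole interval had Aldh1a2, Crabp2 and Rarb lower, beside 8.5% of all genes, and Aldh1a3 and Stra6 higher, beside 7.43%.

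The array carries Rarb 11 times, of which 10 spots have 1 transcript record and 1 spot has another. The 10 spots gave fitted ratios between -1.43 and -1.28 for 13.5 over 11.5 dpc, with a mean of -1.36 and an SD of 0.05. Over 216 sets of at least 10 spots with 1 record on this array, the median SD was 0.164, and 84.7% of the sets had a larger SD than Rarb. The remaining spot, marked as dim, ran the other way with 0.53 for 13.5 over 11.5 dpc and 0.65 for 12.5 over 11.5 dpc. From the 10 spots alone the steps were -0.85 and -0.52. The spots on 1 array share RNA, labelling and hybridisation, so their SD measures the spots and not the limbs.

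**Figure D3:**
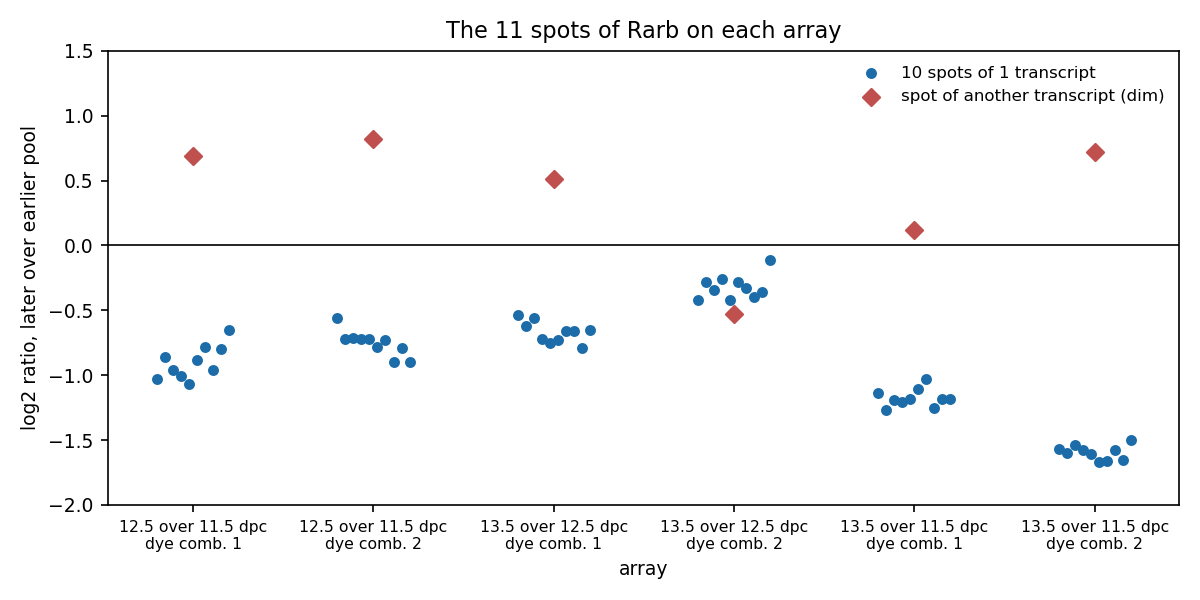
Log2 ratio of the later over the earlier pool (vertical axis) of each of the 11 spots of Rarb on the 6 arrays (horizontal axis), with circles for the 10 spots of 1 transcript record and diamonds for the spot of another record, marked as dim. The 10 spots lie below 0 on every array, between -1.67 and -1.50 on the lowest one, and the other spot lies above 0 on all arrays but 1, where it reads -0.53.

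Rara and Rarg stayed within 2-fold. Rarg, read on 4 spots, had 0.26 and 0.42 for 13.5 over 11.5 dpc, 0.48 and 0.17 for 12.5 over 11.5 dpc, and 0.15 and -0.32 for 13.5 over 12.5 dpc. The earlier step was above 0 on both arrays and the later one had no common sign. The fitted ratios were 0.31 (technical error 0.08), 0.36 (0.16) and -0.05 (0.24), with levels of 1, 1.28 and 1.24. The 4 spots gave 0.44, 0.43, 0.13 and 0.22 for 13.5 over 11.5 dpc.

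Rara was read on 1 dim spot, with 0.29 and 0.27 for 13.5 over 11.5 dpc, 0.23 and 0.73 for 12.5 over 11.5 dpc, and -0.08 and 0.31 for 13.5 over 12.5 dpc. Its fitted ratios were 0.39 (technical error 0.01), 0.37 (0.25) and 0.01 (0.20), and its levels were 1, 1.30 and 1.31. For 13.5 over 11.5 dpc the path through the pool of 12.5 dpc gave 0.60, and the fit lay above both direct arrays. The pools of 12.5 and 13.5 dpc could not be put in order for Rara or for Rarg. Dim spots as a whole drifted in the same direction in the earlier step, with a median of 0.46 for 12.5 over 11.5 dpc against -0.17 for other spots, and the part of this drift in the value of Rara was not tested.

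The other genes of the pathway were read as lists. Of the 61 genes read, 3 were higher and 2 lower at 13.5 than at 11.5 dpc, with a median of -0.05, where 2.93% and 2.57% of all genes were called. In the earlier step 0 passed 3-fold in either direction, and in the later step 1 was higher and 2 were lower, where 1.35% and 0.776% of all genes were called. These counts are too few to be read against the shares over all genes.

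Around Cyp26b1, the degradation enzymes did not share a course. Cyp26a1 read 2.26 and 2.41 for 13.5 over 11.5 dpc, 0.91 and 0.68 for 12.5 over 11.5 dpc, and 1.70 and 2.22 for 13.5 over 12.5 dpc. It was above 0 throughout, and the fitted ratio was 2.48 (technical error 0.07) over the whole interval. Cyp26a1 read 2.76 on the path through the pool of 12.5 dpc, so that the fit lay above both direct arrays. Its levels were 1, 1.58 and 5.56 at 11.5, 12.5 and 13.5 dpc, where Cyp26b1 had 2.13, 1 and 1.10, each on its own scale. Cyp26a1 was the one listed gene at least 3-fold higher in the later step, with 1.82.

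Beside Aldh1a2 and Aldh1a3, of 3 further aldehyde dehydrogenases on the list 1 passed the threshold. Aldh1a7, a mouse relative of Aldh1a1, read -2.95 and -1.99 for 13.5 over 12.5 dpc and 0.83 and 1.90 for 12.5 over 11.5 dpc. It was highest in the middle pool, with levels of 2.48, 5.95 and 1, and the fitted ratio of the later step was -2.57 (technical error 0.48). Of 20 measured genes of vitamin A uptake, storage and retinal synthesis, 0 passed 3-fold in any comparison, and for 13.5 over 11.5 dpc they ran from -1.18 to 1.15. Rbp4, the blood carrier of retinol that STRA6 binds, held the upper end with 1.37 and 0.97 on the direct arrays and levels of 1, 1.19 and 2.22. Rdh10, the main retinol dehydrogenase of the embryo, had 0.39 for 13.5 over 11.5 dpc and 0.51 for the later step.

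Fabp5, a lipid carrier that can pass retinoic acid to another nuclear receptor, PPARD, read -1.48 and -1.53 for 13.5 over 11.5 dpc, with a fitted ratio of -1.28 and levels of 2.42, 1.99 and 1. It was below 0 as Crabp2 was, at less than 3-fold. The RXR partners stayed within 2-fold: Rxra had 0.58, Rxrb -0.49 and Rxrg -0.48 for 13.5 over 11.5 dpc. Of 12 measured coregulators of the receptors, 0 passed 3-fold, and 10 lay below 0 for 13.5 over 11.5 dpc, where 45.4% of all genes did, with a median of -0.30 and a range of -1.42 to 0.58.

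Of 17 measured genes known to respond to retinoic acid, 2 were higher and 2 lower at 13.5 than at 11.5 dpc, with a median of -0.09. Over all genes 2.93% were called higher and 2.57% lower, and the called genes of this list are few. Meis2, which encodes a TALE homeobox protein of proximal limb mesenchyme, read -3.51 and -4.70, with levels of 16.8, 8.22 and 1 at 11.5, 12.5 and 13.5 dpc. Nr2f1, an orphan nuclear receptor, read -3.26 and -2.53, with levels of 6.81, 2.30 and 1. Both were below 0 on all arrays, as were Crabp2, Aldh1a2 and Rarb, and as were 11.5% of genes. Tgm2, a transglutaminase induced by retinoic acid in several cell types, read 2.20 and 2.12, with levels of 1, 1.73 and 4.61. Bhlhe40, a transcriptional repressor, read 1.65 and 1.59, with levels of 1, 1.21 and 3.15. The tally of this list therefore gave no single direction. It leaves out Rarb (-1.19) and Cyp26a1 (2.48), which are named above as induced by retinoic acid and were counted elsewhere. Hoxb1, Cdx1 and Lefty1 are on the list and were read on dim spots only.

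**Figure D4:**
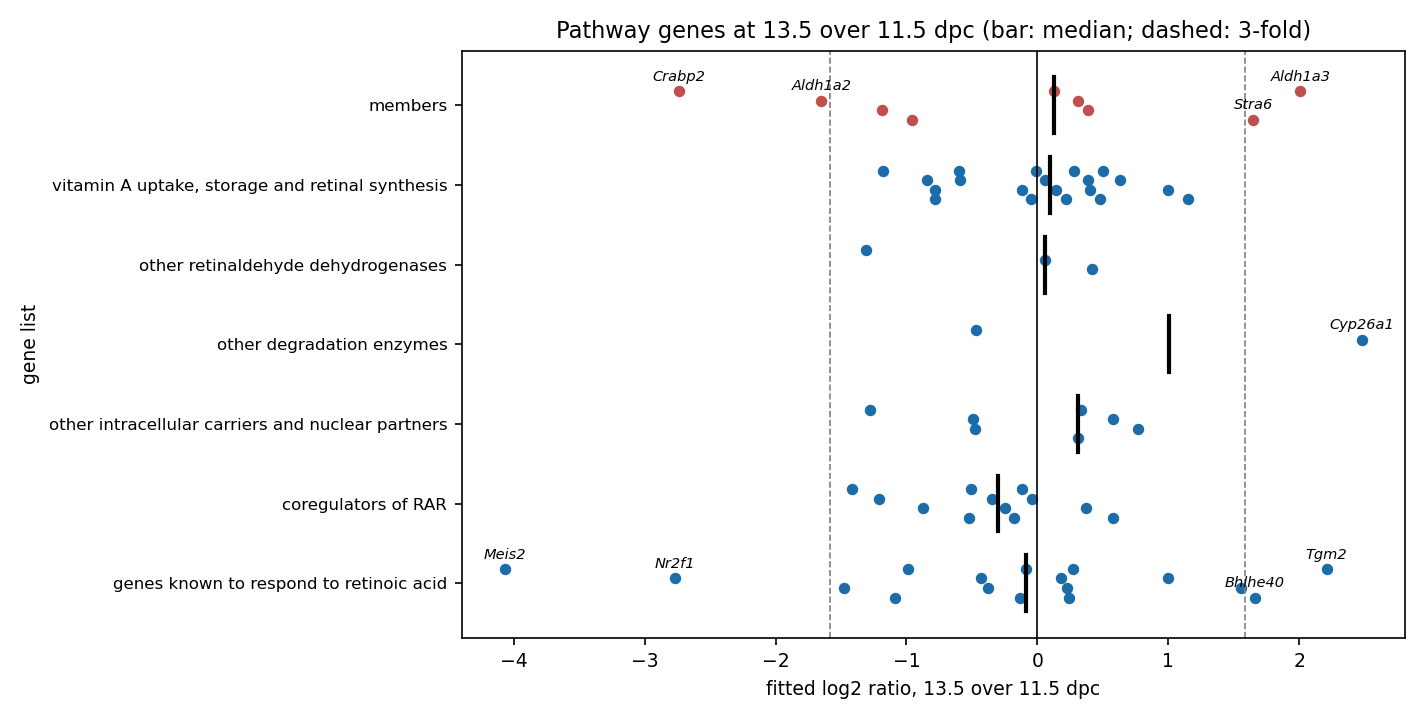
Fitted log2 ratio of 13.5 over 11.5 dpc (horizontal axis) of each gene, 1 point a gene, in the 9 genes and in 6 lists of other pathway genes (vertical axis), with a black bar at the median of each list and dashed lines at 3-fold. Genes past 3-fold are named; the 3 other pathway genes on the right are Cyp26a1 (2.48), Tgm2 (2.21) and Bhlhe40 (1.66), and the 2 on the left are Meis2 (-4.07) and Nr2f1 (-2.77).

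The tissue itself changed over these ages, and a pool with fewer cells of a type cannot be told apart from one with less RNA per cell. Of 8 cartilage markers 7 were called higher for 13.5 over 11.5 dpc, with a median of 4.01, in tissue labelled as cartilage anlagen. Over all genes 2.93% were called higher and 2.57% lower, and these lists are short. Markers of other cells also moved over that interval. Higher were 4 of 9 skeletal muscle genes (median 0.85) and 2 of 8 genes of perichondrium and connective tissue (median 0.76). The muscle genes called were Acta1, Myh3, Tnni2 and Tnnt3. The others were Des (0.85), Actc1 (0.73), Myod1 (0.15), Myog (-0.13) and Myf5 (-0.42). Of the connective tissue genes, Scx (-1.54) and Postn (-0.70) lay below 0. Of 6 measured erythroid genes 2 were lower, with a median of -1.24, as were 1 of 8 endothelial genes (median -0.43) and 1 of 8 ectodermal genes (median -0.00). Schwann cell and neural crest genes had a median of 0.50 with 1 of 5 higher, and macrophage genes had 0.10 with 0 of 5 past 3-fold. The part of any of these lists in the values of Stra6, Aldh1a3, Aldh1a2, Crabp2 or Rarb was not tested.

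The genes most like each of the 4 that passed 3-fold were sought by the distance between their values on the 6 arrays, among 972 other genes past 3-fold in the same comparison that had a value on all 6 arrays. Dscc1, a gene of DNA replication and sister chromatid cohesion, lay closest to Aldh1a2 at a distance of 0.20 log2, followed by Prnd (0.22) and Hnrnpll (0.26). Stc2, a secreted glycoprotein, lay closest to Aldh1a3 at 0.61, followed by P3h2 (0.72) and Olfr874 (0.75). Kit, a receptor tyrosine kinase, lay closest to Crabp2 at 0.58, with -2.76 and -2.73 for 13.5 over 11.5 dpc and levels of 6.30, 2.50 and 1. Ctsc (0.61) and Art5 (0.63) followed. Myom2, a muscle structural protein, lay closest to Stra6 at 0.43, followed by Tmie (0.50) and Ajap1 (0.52). Prnd was read on 1 dim spot, and 1 of the 2 spots of Myom2 was dim. Distances over 6 arrays of 3 pools describe these libraries and no more.

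**Figure D5:**
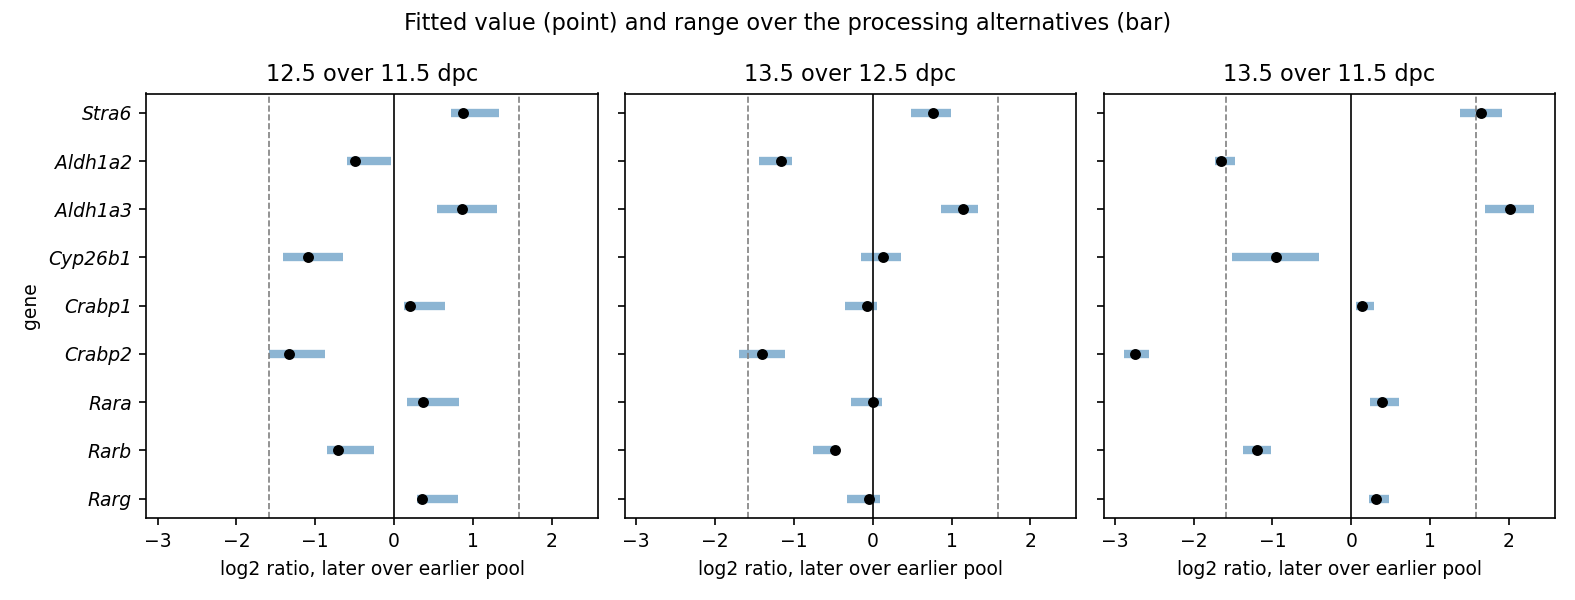
Fitted log2 ratio of the later over the earlier pool (horizontal axis; point) and its range over the processing alternatives (bar) for each of the 9 genes (vertical axis), with dashed lines at 3-fold. For 13.5 over 11.5 dpc no bar crosses 0; Crabp2 (-2.88 to -2.57) and Aldh1a3 (1.70 to 2.32) stay beyond 3-fold, while the bars of Aldh1a2 (-1.73 to -1.48) and Stra6 (1.38 to 1.91) cross it.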

How the data were processed

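The authors hybridised amplified RNA to Agilent 44K mouse arrays, scanned them and quantified the spots with GenePix Pro. The deposited values are log2 ratios of Cy5 over Cy3 for each spot. The methods then name print-tip loess, which the values do not show: column medians lie between -0.354 and 0.727, and 39 to 60 values an array sit at a cap. Between 136 and 1905 of 45220 spots an array have no value. Signal intensity and probe sequence were not used here, so the precision is limited by the number of arrays.

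Values over 15 in size were dropped. Signs were set from the dyes in the labels to give later over earlier pools, arrays were centred on their medians, and 2 differences were fitted to the 6 arrays by least squares for 45108 spots. Spots with only 1 symbol were averaged by gene, through GEO's platform annotation, in which 33653 spots had 1 symbol, 56 several and 11511 none. The arrays of a pair correlated across spots, which are not independent replicates, at r of 0.518 for 13.5 over 11.5 dpc, 0.397 for 12.5 over 11.5 dpc and 0.332 for 13.5 over 12.5 dpc. Around the loop of 3 comparisons the spots with a value on all arrays failed to close by an SD of 0.452. Calls count fitted ratios of at least 3-fold, and no p-value was computed.

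The 9 genes, the lists and the rule for named genes were chosen with earlier results of these data known. Named were the 9 genes, other listed genes past 3-fold, carriers, enzymes and partners fixed by name, and the 3 nearest genes to each of the 9 that passed 3-fold. The genes printed for the promoter search were chosen after their values were seen. Alternatives were no centring, centring on spots not dim, scaling, direct or indirect arrays only, 1 dye combination, leaving out each array, capped values, median of spots, no dim spots, spots on all arrays, and 2-fold or 4-fold. Reading Rarb from 10 spots was added after the data were seen. Some listed genes are not reported here. The fit was tested on simulated data. Python 3.11.15, numpy 2.4.6, pandas 2.3.3 and matplotlib 3.10.9 were used.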

Additional observations from a re-analysis of the deposited data

Results flagged for a closer look

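Cyp26b1 was lower in the earlier step and stayed close to 0 in the later one, with opposite signs after centring. Both arrays of 12.5 over 11.5 dpc were below 0, with a fitted ratio of -1.09. Both arrays of 13.5 over 12.5 dpc were above 0, with a fitted ratio of 0.13 (technical error 0.10). This pattern of signs was shared by 16.0% of genes. Without centring, the arrays of 13.5 over 12.5 dpc read 0.451 and -0.525 for Cyp26b1. The difference between the steps was not tested, the steps share the pool of 12.5 dpc, and the sign of the later one turned in 3 of 17 alternatives.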

How the results depend on the processing

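No paired analysis was possible because each age is 1 pool and the counts come from no test. For 13.5 over 11.5 dpc the 2 genes higher became 1 on the indirect path only, in dye combination 1 alone and at 4-fold, and 1 to 2 when single arrays were left out; in the first 2 of these and on leaving out an array it was Stra6 that fell short. The 2 genes lower became 1 without centring, with centring on spots not dim (Aldh1a2 at -1.57), with scaling (-1.57), in dye combination 2 alone (-1.56) and at 4-fold, and 1 to 2 on leaving out arrays. For 12.5 over 11.5 dpc the 0 genes lower became 1 in dye combination 2 alone (Crabp2, -1.59) and 2 at 2-fold. For 13.5 over 12.5 dpc the 0 genes higher became 1 at 2-fold, and the 0 genes lower became 1 without centring, 1 in dye combination 1 alone, 2 at 2-fold, and 0 to 1 on leaving out arrays, the 1 being Crabp2 without the second array of that pair. The causes were not tested. The signs of all 9 genes held for 13.5 over 11.5 dpc and 12.5 over 11.5 dpc under each alternative that gave a value, and those of 5 for 13.5 over 12.5 dpc. Cyp26b1 turned in 3 alternatives there, Crabp1 in 2, Rara in 7 and Rarg in 4. The share of all genes that kept their sign was not computed, and the alternatives draw on the same 6 arrays. Rara has no value without dim spots. Over all genes, the shares called higher and lower for 12.5 over 11.5 dpc were 4.47% and 0.0734% without centring and 1.96% and 0.183% with centring on spots not dim, and for 13.5 over 12.5 dpc 0.902% and 1.60% without centring. Among the 9 genes the dim mark limits Rara, 1 spot of Aldh1a3 and 1 of Rarb. It was drawn from the ratios and not from signal intensity.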
